A study of Drosophila melanogaster with 18 samples.

Results

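The genes described here pattern the Drosophila melanogaster embryo from back to belly, with RNA measured in embryos from maternal piwi knockdowns and control knockdowns. They are dpp, scw, zen, tld, tsg, twi, sna, sog, rho and brk. These 10 genes were chosen by their FlyBase symbols as zygotic genes of the dorsoventral axis, and all 10 were found among 17768 FlyBase gene IDs in an RNA table of 17994 features, the others being repeat elements. All 10 also passed the filter on low values, a normalised level of at least 1 in at least 3 libraries, which 10767 features passed.

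Whole embryos aged 0 to 1.5 h were harvested from cages kept at 25 °C. In GFP-MatKD, the control, the maternal genotype was 41550/MAT-Gal4. That of Piwi-MatKD_1 was 37483/MAT-Gal4, that of Piwi-MatKD_2 was THU/MAT-Gal4, and the paternal genotype was w1118 in all 3 groups. MatKD stands for a maternal knockdown, in which a driver active in the mother's germ line expresses a short hairpin RNA, so the controls carried a driver and a hairpin too. By the genotype labels the mothers carried driver and hairpin together, whereas the growth protocol describes about 100 hairpin females mated to 20 driver males, so the direction of the cross is uncertain. Each group had 3 RNA libraries and 3 small RNA libraries. The labels do not say whether libraries of a group came from separate collections, so p-values measure only the spread between these libraries, which may be technical. A whole-embryo library holds embryos pooled from many mothers, and fewer embryos or cells expressing a gene cannot be told apart from less RNA per cell.

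Dorsoventral fate in the fly embryo is set by a gradient of the maternal transcription factor Dorsal, which enters nuclei on the ventral side through Toll signalling. High nuclear Dorsal activates twi and sna in the future mesoderm, lower levels activate sog, rho and brk in the neurogenic ectoderm at the sides, and Dorsal represses dpp, zen, tld and tsg, which are thereby left to the dorsal side. The products of dpp, scw, tsg, sog and tld then shape a gradient of bone morphogenetic protein (BMP) signalling across the dorsal ectoderm. These genes are transcribed by the embryo itself, as its genome becomes active.

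Read totals of the RNA libraries ran from 8.5 to 73.0 M, with M for 1000000 reads. The Piwi-MatKD_2 columns could be matched to their group but not to a numbered sample, and are named by their totals of 21.6, 8.5 and 73.0 M reads. Normalised reads of piwi, the targeted gene, were 7963 to 9360 in the controls, and in the knockdown lines they were 256 to 410 (Piwi-MatKD_1) and 87.7 to 646 (Piwi-MatKD_2). Maternal mRNAs, the markers of the early embryo, were present in every library: 13 genes such as bcd and osk summed to between 332309 and 369299 normalised reads in the 9 libraries, with none at 0 in any of them. A pair of Piwi-MatKD_2 libraries stood apart in nuclear ribosomal RNA, which took 10.9% of the reads of the 21.6 M library (95% Wilson interval 10.89 to 10.91) and 5.90% of those of the 8.5 M library (5.89 to 5.92), against 0.182% to 0.535% in the other 7. The 73.0 M library was at 0.328% (0.327 to 0.330). One Piwi-MatKD_1 library, replicate 2, stood apart in 15 markers of late embryos such as the muscle genes Mhc and Act57B, which summed to 1988 normalised reads there and to 134 to 293 in the other 8; none of the 15 was at 0 in that library, and 2 to 10 were in the others. Markers of ovarian follicle cells, 11 eggshell and yolk protein genes, summed to 5.79 to 11.9 normalised reads, with 6 to 9 of them at 0. Fold changes of the 10 genes, list medians and domain sums in Piwi-MatKD_2 are given below also without the 21.6 and 8.5 M libraries, and those of dpp and sog in Piwi-MatKD_1 without its replicate 2.

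The mean level of all 10 genes was lowest in Piwi-MatKD_2. For each of them, every Piwi-MatKD_2 library lay below every GFP-MatKD library, a pattern shown by 12.9% of all features tested. Of the 10, the 3 genes dpp, tld and brk fell beyond the threshold, an adjusted p under 0.05 over all 10767 features, and none rose. Of all features, 1.42% fell and 3.04% passed in either direction. The median log2 fold change of the 10 was -2.56, against -0.04 over all features. In Piwi-MatKD_1 against GFP-MatKD none of the 10 passed the threshold, where 0.186% of all features did. Their median there was -0.35, against 0.01 over all features. Fold changes are differences of log2(normalised reads + 1), which understates changes of low genes, and adjusted p-values are from limma with Benjamini-Hochberg adjustment unless another tool is named. Levels were not scaled to transcript length, so differences in level between genes are not interpreted. Sums over genes, where given, weigh the genes with more reads most.

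**Figure D1:**
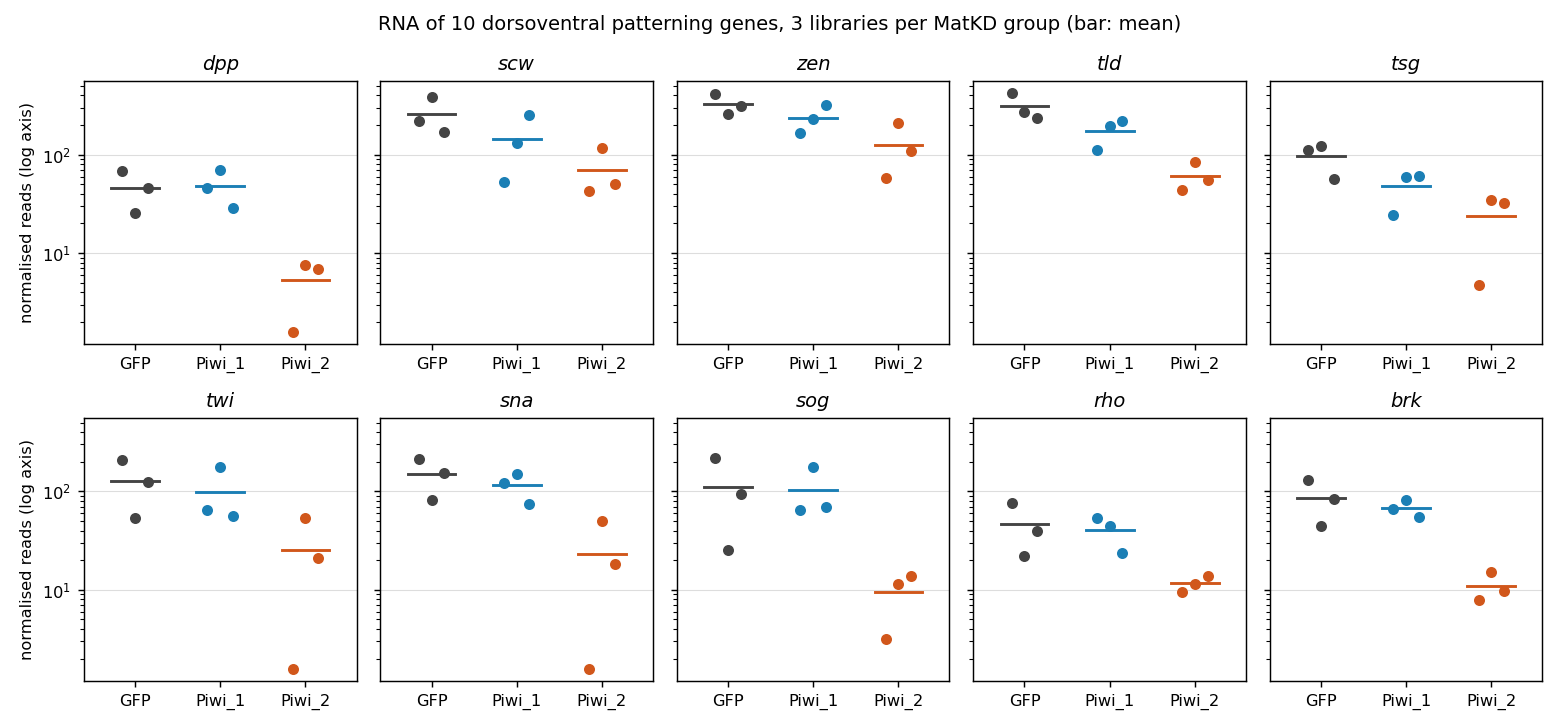
Normalised reads of the 10 genes (log axis) in the 3 libraries of each group, with 1 point per library and a bar at the group mean. The top row has dpp, scw, zen, tld and tsg, the bottom row twi, sna, sog, rho and brk. For all 10 genes the 3 Piwi-MatKD_2 points lie below the 3 GFP-MatKD points, while the Piwi-MatKD_1 points overlap those of GFP-MatKD for every gene but tld.

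Of the BMP ligands, dpp encodes the main one of the dorsal ectoderm and lies on chromosome arm 2L from 2428372 to 2459823, in the RefSeq annotation of Release 6 plus ISO1 MT. Its normalised reads were 67.8, 25.5 and 46.0 in GFP-MatKD replicates 1 to 3. They were 46.2, 69.5 and 28.7 in Piwi-MatKD_1 replicates 1 to 3. In Piwi-MatKD_2 they were 1.57, 7.63 and 6.96 in the libraries of 21.6, 8.5 and 73.0 M reads. The Piwi-MatKD_2 libraries lay below all 6 others, and the highest value of the 9 was that of Piwi-MatKD_1 replicate 2, the library with late-embryo markers. Few reads stand behind the low values: 1, 2 and 18 reads, for which exact Poisson intervals at 95% run from 0.0397 to 8.74, from 0.924 to 27.5 and from 4.13 to 11 normalised reads, covering counting error only. The mean fell from 46.4 ± 21.2 (SD, n = 3) in GFP-MatKD to 5.39 ± 3.32 in Piwi-MatKD_2, a log2 fold change of -2.97 with a standard error of 0.58 and an adjusted p of 0.0300 by limma. On leaving out 1 library at a time the call held in 6 of 9 fits. It was lost without GFP-MatKD replicate 1 (adjusted p = 0.143 by limma), without GFP-MatKD replicate 3 (0.122) and without Piwi-MatKD_1 replicate 1 (0.0599), which enters through the shared spread.

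The other ligand gene, scw, encodes a BMP that is transcribed throughout the early embryo and acts together with Dpp. Its normalised reads were 222, 390 and 172 in the controls, 52.5, 130 and 251 in Piwi-MatKD_1, and 42.4, 118 and 50.7 in Piwi-MatKD_2, in the same order of libraries. GFP-MatKD and Piwi-MatKD_2 did not overlap, whereas Piwi-MatKD_1 overlapped both and its own libraries differed 4.78 times from lowest to highest. Against GFP-MatKD the log2 fold change was -1.94 in Piwi-MatKD_2 (adjusted p = 0.150 by limma) and -1.03 in Piwi-MatKD_1, and neither passed. The gene lies within the spans of Lar and CG46244, and reads of overlapping genes may not be separable, since counting by strand is not given in the sources used here. Lar averaged 1198 normalised reads in GFP-MatKD and 1202 in Piwi-MatKD_2, so the overlapping gene did not show the lower level of scw.

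Among the other dorsal genes, tld encodes a secreted metalloprotease that cleaves Sog and so releases BMP ligands, and lies on 3R from 24749731 to 24753510. It had 424, 275 and 237 normalised reads in GFP-MatKD and 112, 194 and 219 in Piwi-MatKD_1. In Piwi-MatKD_2 it had 43.9, 83.9 and 54.9. The 3 groups did not overlap for tld: every Piwi-MatKD_1 library lay between the other groups, and tld was the only one of the 10 genes with all Piwi-MatKD_1 libraries below all GFP-MatKD libraries, as 5.12% of all features were. The mean fell from 312 ± 98.9 (SD, n = 3) to 60.9 ± 20.6 in Piwi-MatKD_2, with a log2 fold change of -2.34, a standard error of 0.36 and an adjusted p of 0.00956 by limma. This call held in 8 of 9 fits that left out 1 library, and without GFP-MatKD replicate 1 the adjusted p was 0.0547. In Piwi-MatKD_1 the log2 fold change of -0.84 had an unadjusted p of 0.0423 and an adjusted p of 0.9997 by limma.

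The homeodomain factor gene zen specifies the amnioserosa, the dorsalmost tissue. It had 417, 260 and 314 normalised reads in the controls, 167, 229 and 320 in Piwi-MatKD_1, and 58.1, 210 and 109 in Piwi-MatKD_2. The 8.5 M library at 210 exceeded the lowest Piwi-MatKD_1 library, and the log2 fold change of -1.55 against GFP-MatKD (adjusted p = 0.118 by limma) was the smallest in size of the 10 in Piwi-MatKD_2. The gene tsg encodes a secreted protein that binds BMP ligands together with Sog. Its normalised reads were 112, 122 and 57.3 in the controls, 24.4, 59.4 and 60.2 in Piwi-MatKD_1, and 4.71, 34.3 and 32.5 in Piwi-MatKD_2. Its 21.6 M library was far below the other Piwi-MatKD_2 libraries, and its log2 fold changes of -2.30 in Piwi-MatKD_2 (adjusted p = 0.152 by limma) and -1.04 in Piwi-MatKD_1 did not pass.

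The ventral genes twi and sna showed the widest spread within Piwi-MatKD_2. The basic helix-loop-helix factor gene twi, an activator of mesodermal genes, had 207, 54.3 and 126 normalised reads in GFP-MatKD and 64.9, 177 and 55.9 in Piwi-MatKD_1. In Piwi-MatKD_2 it had 1.57, 53.4 and 20.9, from 1, 14 and 54 reads. The 8.5 M library at 53.4 was only just below the lowest GFP-MatKD library at 54.3, and the highest Piwi-MatKD_2 value was 34 times the lowest. The log2 fold change of -2.97 had a standard error of 1.03 and an adjusted p of 0.201 by limma, so twi, with a fold change close to that of dpp, did not pass. Other genes lie within the span of twi; of these, CG9896 averaged 2269 normalised reads in GFP-MatKD and 1940 in Piwi-MatKD_2, and asRNA:CR42742 and CG9897 were at 0 in every library.

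The zinc finger repressor gene sna keeps neurogenic genes off in the mesoderm. It had 213, 81.5 and 155 normalised reads in the controls, 121, 149 and 74.5 in Piwi-MatKD_1, and 1.57, 49.6 and 18.2 in Piwi-MatKD_2. As for twi, the 21.6 M library held 1 read and the 8.5 M library was the highest of its group, and no Piwi-MatKD_2 library reached the other groups. The log2 fold change of -3.37, the largest in size of the 10, had a standard error of 0.93 and an adjusted p of 0.105 by limma.

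Of the lateral genes, sog encodes the secreted BMP antagonist of the neurogenic ectoderm. It had 216, 25.5 and 94.6 normalised reads in the controls, 64.0, 178 and 69.5 in Piwi-MatKD_1, and 3.14, 11.4 and 13.9 in Piwi-MatKD_2. The Piwi-MatKD_2 values of sog came from 2, 3 and 36 reads. Its GFP-MatKD libraries differed 8.49 times from lowest to highest, the widest range of the 10 in the controls, and replicate 2 at 25.5 was nearer to Piwi-MatKD_2 than to replicate 1. The log2 fold change of -3.16 in Piwi-MatKD_2 had a standard error of 0.80 and an adjusted p of 0.0808 by limma. The gene rho encodes an intramembrane protease that releases ligands of the epidermal growth factor receptor. It had 76.6, 22.1 and 39.9 normalised reads in the controls, 54.2, 44.9 and 23.6 in Piwi-MatKD_1, and 9.41, 11.4 and 13.9 in Piwi-MatKD_2. The Piwi-MatKD_2 values of rho, from 6, 3 and 36 reads, were close together and below those of the other 6 libraries. For the 8.5 M library the exact Poisson interval at 95% ran from 2.36 to 33.4, past GFP-MatKD replicate 2 at 22.1. The log2 fold change of rho was -1.75 against GFP-MatKD (adjusted p = 0.113 by limma). Its span overlaps that of Ptp61F, which averaged 9503 normalised reads in GFP-MatKD and 10492 in Piwi-MatKD_2.

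The third gene to pass, brk, encodes a repressor of Dpp target genes in the lateral ectoderm and lies on the X chromosome from 7307939 to 7311132. It had 131, 44.1 and 83.3 normalised reads in GFP-MatKD and 66.7, 81.1 and 55.2 in Piwi-MatKD_1. In Piwi-MatKD_2 it had 7.85, 15.3 and 9.67, from 5, 4 and 25 reads. The Piwi-MatKD_2 libraries lay within 1.94 times of each other and well below the other 6. The mean fell from 86.0 ± 43.3 (SD, n = 3) to 10.9 ± 3.86, a log2 fold change of -2.78 with a standard error of 0.43 and an adjusted p of 0.00993 by limma. The call held in 8 of 9 fits that left out 1 library, with an adjusted p of 0.0593 without GFP-MatKD replicate 3. The span of brk overlaps CG1677, which averaged 14583 normalised reads in GFP-MatKD and 14954 in Piwi-MatKD_2.

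**Figure D2:**
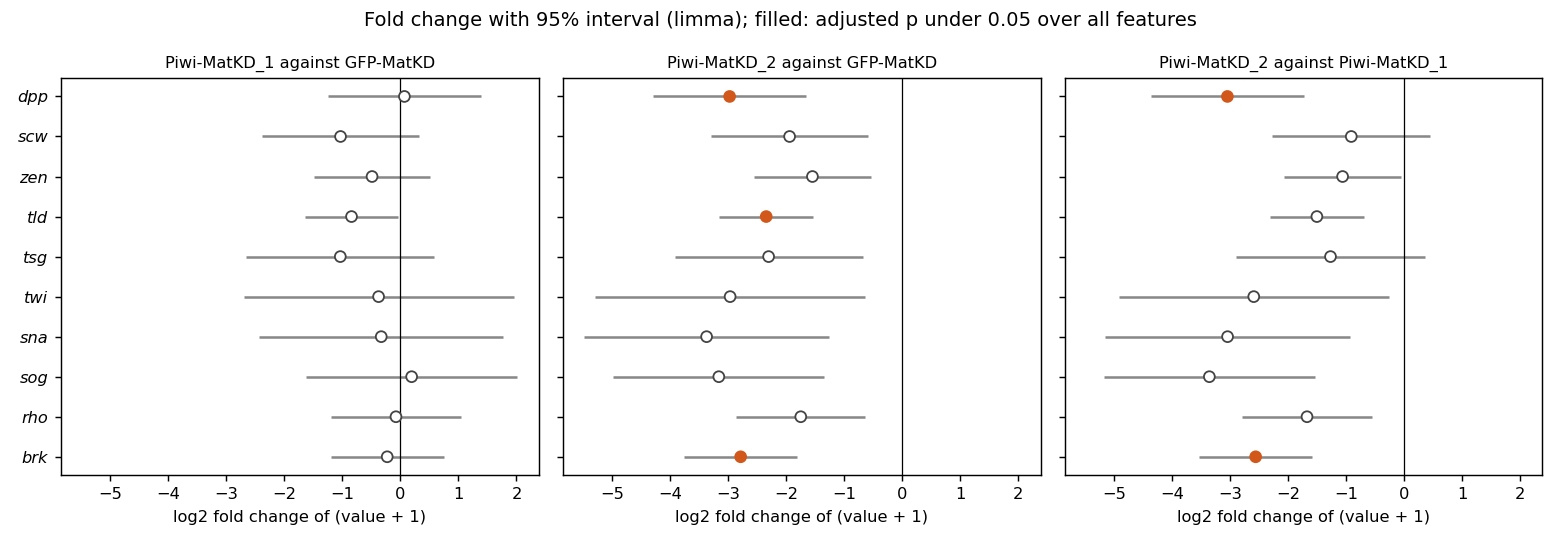
Log2 fold change of each of the 10 genes (points) with its 95% interval from limma (lines) in the 3 comparisons; filled points have an adjusted p under 0.05 over all features tested. All 10 points lie below 0 in both Piwi-MatKD_2 comparisons, with dpp, tld and brk filled against GFP-MatKD and dpp and brk filled against Piwi-MatKD_1, while none is filled for Piwi-MatKD_1 against GFP-MatKD.

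In the plot of fold changes with intervals, twi and sna stand out by their width. Their intervals ran from -5.29 to -0.64 and from -5.48 to -1.27, while that of tld ran from -3.15 to -1.54. At an unadjusted p under 0.05, all 10 genes were lower in Piwi-MatKD_2 than in GFP-MatKD, against 8.99% of all features. When the 21.6 and 8.5 M libraries with the high ribosomal RNA shares were both left out, the 73.0 M library alone stood for Piwi-MatKD_2 and was assumed to vary like the other groups. The log2 fold changes were then -2.47 for dpp (adjusted p = 0.163 by limma), -2.44 for tld (0.0658) and -2.90 for brk (0.0814), and 0 of the 10 genes passed. Of the other genes, tsg moved from -2.30 to -1.48, sog from -3.16 to -2.46 and twi from -2.97 to -2.37, each by over 1.5 times. The rest stood at -2.87 for sna, -2.26 for scw, -1.56 for zen and -1.49 for rho. All 10 stayed below 0, with a median of -2.41 against -0.04 over all features.

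The lowest of the 9 libraries was the 21.6 M library for all 10 genes, as for 26.6% of all features tested. Summed over the 10 genes, normalised reads were 2086, 1300 and 1325 in the controls, 774, 1312 and 1157 in Piwi-MatKD_1, and 174, 595 and 331 in Piwi-MatKD_2. Within Piwi-MatKD_2 the sum was lowest in the library with the highest ribosomal RNA share and highest in the one with the next highest share, and the part of that share in the levels was not tested. Levels also differed between libraries of the controls. GFP-MatKD replicate 1 was the highest of its group for 8 of the 10 genes, and replicate 2 the lowest for 7. The exceptions to the first were scw and tsg, which were highest in replicate 2. How many of all features followed the same order was not counted.

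Grouped by the side of the embryo where they act, a grouping made with the values known, the ventral and lateral genes twi, sna, sog, rho and brk summed to 523 ± 309 normalised reads in the controls (SD, n = 3), while Piwi-MatKD_1 averaged 427 ± 182 and Piwi-MatKD_2 80.4 ± 58.9. The dorsal genes dpp, zen, tld and tsg with scw summed to 1047 ± 209, 654 ± 239 and 286 ± 154. In Piwi-MatKD_2 these sums stood at 15.4% of the GFP-MatKD mean for the ventral and lateral genes and at 27.3% for the dorsal genes with scw. In the 73.0 M library alone they stood at 14.6% and 24.3%. The ventral and lateral share of the summed normalised reads was 17.5% to 40.4% in control libraries, 24.1% to 48% in those of Piwi-MatKD_1, and 13.5% to 23.7% in those of Piwi-MatKD_2. The ranges of GFP-MatKD and Piwi-MatKD_2 overlapped through GFP-MatKD replicate 2, and the share is given as a description. Both the sums and the share weigh the genes with more reads most.

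In Piwi-MatKD_1 against GFP-MatKD, 0 of the 10 genes passed by limma, where 0.186% of all features passed and 0.0372% passed as lower. DESeq2 and edgeR on reads recovered from the table also called 0, where they called 74 of 10767 and 19 of 8627 features. A count of 0 among 10 genes lies near all of these shares. At an unadjusted p under 0.05, 1 gene, tld, was lower, against 1.30% of all features. The log2 fold changes ran from -1.04 for tsg to 0.19 for sog. Of the 10, 8 were below 0, against 5225 of all 10767 features. Their 95% intervals were wide, from -1.25 to 1.39 for dpp and from -1.20 to 0.75 for brk, so changes of the size seen for either gene in Piwi-MatKD_2 lay outside the interval, while for twi the interval ran from -2.70 to 1.95. Piwi-MatKD_1 replicate 2, the library with late-embryo markers, was the highest of its group for dpp, sog, twi, sna and brk, and the part of older embryos in those levels was not tested. Without that library, the log2 fold changes of dpp and sog against GFP-MatKD were -0.24 and -0.27.

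The knockdown lines were also compared directly. Of the 10 genes, 2 passed as lower in Piwi-MatKD_2 than in Piwi-MatKD_1, where 1.01% of all features were lower and 2.22% passed in either direction. They were dpp, with a log2 fold change of -3.04 (SE 0.58, adjusted p = 0.0335 by limma), and brk, with -2.56 (SE 0.43, adjusted p = 0.0181 by limma). The level of tld was 2.83 times lower with an adjusted p of 0.0808, and the log2 difference of sog was -3.35 with 0.0831, both by limma. At an unadjusted p under 0.05, 8 of the 10 were lower, against 8.72% of all features. All 10 differences were below 0, with a median of -2.11 against -0.05 over all features, and for 7 genes no Piwi-MatKD_2 library reached any Piwi-MatKD_1 library, as for 9.63% of all features. The 3 genes that overlapped between the lines were zen, scw and tsg. Both calls were lost without Piwi-MatKD_1 replicate 1, without Piwi-MatKD_1 replicate 2 and without the 73.0 M library, where the adjusted p of both was 0.0505 by limma. Without GFP-MatKD replicate 1 or 3 the call of dpp alone was lost (adjusted p = 0.0559 and 0.0749 by limma). The comparisons of Piwi-MatKD_2 share its libraries, so they are not separate evidence of its low levels.

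Upstream of the 10 genes lies the maternal Dorsal pathway. Of 15 genes of the pathway tested, 0 passed by limma in either direction in any of the 3 comparisons. Over all features the shares were 0.186% (Piwi-MatKD_1 against GFP-MatKD), 3.04% (Piwi-MatKD_2 against GFP-MatKD) and 2.22% (between the lines), and 0 of 15 lies near them. At an unadjusted p under 0.05, 0 differed between Piwi-MatKD_2 and GFP-MatKD, where 968 of all 10767 features were lower and 675 higher. At the same unadjusted threshold 1 was lower in Piwi-MatKD_1 than in GFP-MatKD, against 1.3% of all features. Between the lines 1 was lower in Piwi-MatKD_2, against 8.72%. The other tools, edgeR and DESeq2, called 0 of the 15 as lower in all 3 comparisons. Over all features, in the same order of comparisons, edgeR called 5, 130 and 95 of 8627 as lower and DESeq2 33, 383 and 338 of 10767. Their median log2 fold change in Piwi-MatKD_2 against GFP-MatKD was -0.07. The receptor gene Tl averaged 17540 ± 1203 normalised reads in the controls (SD, n = 3), while Piwi-MatKD_1 averaged 15721 ± 1666 and Piwi-MatKD_2 16970 ± 4232. The gene of the Dorsal inhibitor, cact, averaged 14129 ± 673, 14478 ± 1350 and 13197 ± 2635. The gene of Dorsal itself, dl, named here outside the rule on named genes, averaged 4254 ± 104, 4321 ± 309 and 4342 ± 424. For Tl, cact and dl the ranges of the 3 groups overlapped. The pathway median was -0.08 without the 21.6 and 8.5 M libraries.

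In the BMP pathway, which reads the ligands, 1 of 11 genes fell in Piwi-MatKD_2 against GFP-MatKD by limma, against 1.42% of all features. The median log2 fold change of the 11 was -0.01. DESeq2 on recovered reads called 3 as lower, where it called 3.56% of all features as lower. Without the 21.6 and 8.5 M libraries the median was -0.37. The gene that fell was Dad, an inhibitory Smad that BMP signalling itself induces. BMP signalling was not measured, and how much of the Dad RNA was maternal was not tested. Dad averaged 801 ± 87.1 normalised reads in the controls (SD, n = 3), while Piwi-MatKD_1 averaged 706 ± 132 and Piwi-MatKD_2 189 ± 42.4. The log2 fold change against GFP-MatKD was -2.10 (SE 0.22, adjusted p = 0.00147 by limma), and this call held in 21 of 21 alternatives, the fit on the 73.0 M library alone included. The transducer gene Mad averaged 7130 ± 177, 7638 ± 545 and 8463 ± 161 normalised reads, and the receptor gene put 6155 ± 436, 5674 ± 681 and 6233 ± 567, and neither passed. Levels of Mad were higher in Piwi-MatKD_2, at 8363 to 8648, than in GFP-MatKD, at 6962 to 7316. At an unadjusted p under 0.05 by limma, 3 of the 11 genes were lower in Piwi-MatKD_2 than in GFP-MatKD and 1 was higher. Of all 10767 features, 968 were lower and 675 higher.

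Of 25 other zygotic genes of the dorsoventral axis, 1 fell in Piwi-MatKD_2 by limma, against 1.42% of all features. Their median log2 fold change was -1.47, with 21 of the 25 below 0, against 5999 of all 10767 features. DESeq2 called 4 as lower, with the same 3.56% of all features beside it. Without the 21.6 and 8.5 M libraries the median was -1.39. The gene that fell was Mef2, a muscle transcription factor that twi regulates. A link to the level of twi was not tested, nor how much of the Mef2 RNA was maternal. Mef2 averaged 2505 ± 218 normalised reads in the controls (SD, n = 3), while Piwi-MatKD_1 averaged 2581 ± 468 and Piwi-MatKD_2 983 ± 163. Its log2 fold change was -1.36 (SE 0.17, adjusted p = 0.00360 by limma), and it passed in 21 of 21 alternatives. The most abundant of these genes that did not pass were fog, a secreted signal of gastrulation, at 2877 ± 201, 2315 ± 141 and 2932 ± 472, and zfh1, a mesodermal transcription factor, at 1874 ± 117, 1927 ± 407 and 2005 ± 397. Genes with a high level in every group thus sat beside genes that were near 0 in Piwi-MatKD_2. Of the 25, 13 had no read in the 21.6 M library, 5 in the 8.5 M library and 0 in the 73.0 M library. Outside Piwi-MatKD_2, 1 had no read in GFP-MatKD replicate 2 and 3 had none in Piwi-MatKD_1 replicate 3. The share of all features without a read was not counted, and the part of depth in these counts was not tested.

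**Figure D3:**
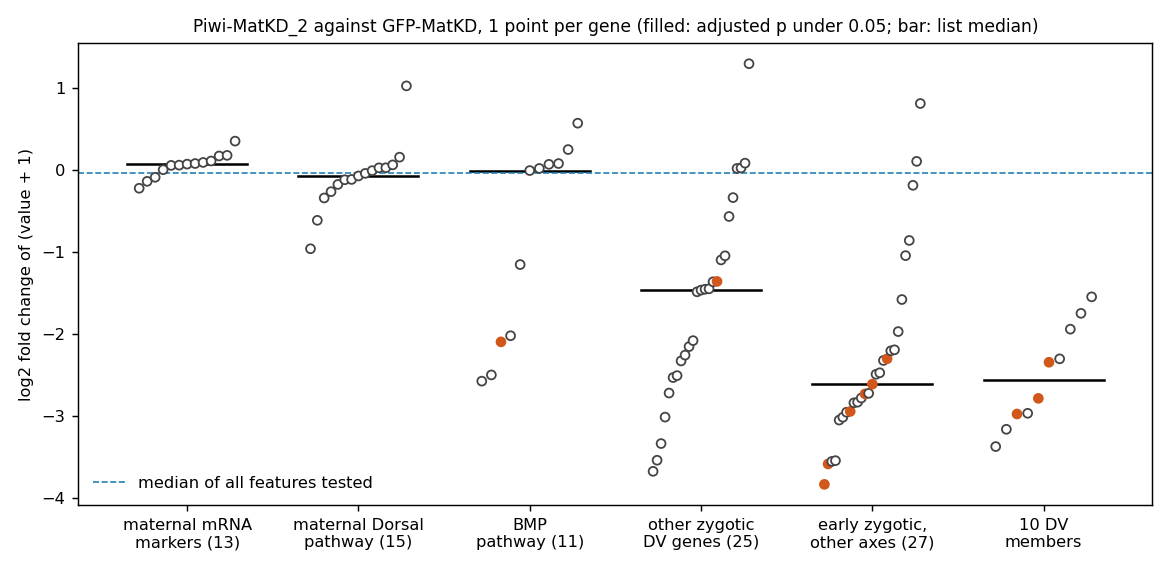
Log2 fold change in Piwi-MatKD_2 against GFP-MatKD, with 1 point per gene, in the 10 dorsoventral genes (DV members) and 5 lists; filled points have an adjusted p under 0.05 by limma, bars mark list medians and the dashed line the median of all features. The medians of the 10 genes and of early zygotic genes of other axes lie at -2.56 and -2.61, and those of maternal Dorsal pathway genes and maternal mRNA markers at -0.07 and 0.07.

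Of 27 early zygotic genes outside the dorsoventral axis, 6 fell in Piwi-MatKD_2 against GFP-MatKD by limma, against 1.42% of all features. The list median was -2.61. Of the 27, 25 were below 0, against 5999 of all 10767 features, and the exceptions were opa at 0.81 and Sxl at 0.10. The list was not tested against the 10 genes. DESeq2 on recovered reads called 22 as lower, against 3.56% of all features, and edgeR 7, against 1.51%. Among the 6, the 4 with the largest fold changes were odd, a pair-rule gene, with a log2 fold change of -3.83 (adjusted p = 0.0176 by limma), Kr, a gap gene, with -3.58 (0.0161), oc, a head gene, with -2.94 (0.00882), and sisA, an X-linked gene of sex determination, with -2.73 (0.0384). Without the 21.6 and 8.5 M libraries Kr still passed, at -2.76 (adjusted p = 0.0300 by limma), while odd, oc and sisA did not, and the list median was -2.22. On leaving out 1 library the calls of Kr and oc held in 7 of 9 fits and that of odd in 6, all 3 being lost without GFP-MatKD replicate 1 and without replicate 3. The call of sisA held in 4 of 9 such fits and in 12 of all 21 alternatives. Levels of slam, a cellularisation gene, were 11284 ± 3335 normalised reads in the controls (SD, n = 3), while Piwi-MatKD_1 averaged 9288 ± 1971 and Piwi-MatKD_2 5498 ± 1716. Those of hb, which is both maternal and zygotic, were 8280 ± 827, 8235 ± 1286 and 7469 ± 2295, and neither gene passed. In Piwi-MatKD_1 against GFP-MatKD, 0 genes of any of these lists passed by limma, against 0.186% of all features. At an unadjusted p under 0.05, 1 Dorsal pathway gene and 1 other dorsoventral gene were lower, against 140 of all 10767 features. At that threshold 1 early zygotic gene of other axes was higher, against 167 features. Of the list genes edgeR and DESeq2 called 0 as lower, against 5 of 8627 and 33 of 10767 features.

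**Figure D4:**
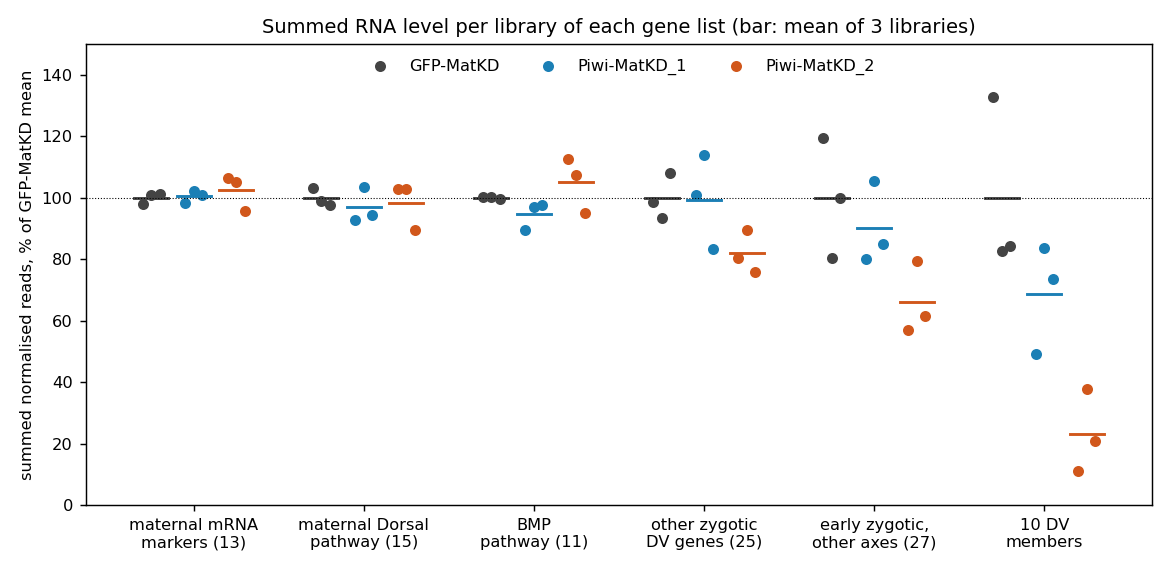
Summed normalised reads per library, as a percentage of the GFP-MatKD mean, of 5 gene lists and of the 10 dorsoventral genes (DV members), with bars at the mean of 3 libraries. The 3 Piwi-MatKD_2 points of the 10 genes lie below all other points of those genes, whereas Piwi-MatKD_2 points of maternal mRNA markers and maternal Dorsal pathway genes overlap those of the controls.

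The plot of summed levels shows the contrast per library. The genes whose pattern over the 9 RNA libraries was most like the mean of the 10, by Pearson's r of log2 levels among 7468 candidates, were ftz (0.989), tll (0.987), CG13868 (0.984), D (0.983) and CG14937 (0.982). The gene ftz is a pair-rule gene, tll a terminal gap gene, and D encodes a Sox transcription factor. For ftz, normalised reads averaged 125 in the controls, 82.9 in the first knockdown line and 20.6 in the second. These points share libraries, depth and the ribosomal RNA shares given above, and the r values are a description.

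Small RNAs of 20 to 30 nt were measured in separate libraries of the same groups. Few were counted at the 10 genes, as at most of the 17773 features, of which 2169 passed the filter on low counts. Of the 10 genes only twi passed that filter. Its expected counts were 24.7, 34.2 and 41.6 in GFP-MatKD replicates 1 to 3, 11.2, 33.4 and 25.8 in Piwi-MatKD_1, and 14.5, 33.0 and 52.4 in Piwi-MatKD_2. The 3 groups overlapped, and twi passed in none of the comparisons: the log2 fold change was -0.38 in Piwi-MatKD_1 against GFP-MatKD (adjusted p = 0.557 by edgeR), 0.47 in Piwi-MatKD_2 against GFP-MatKD (0.529) and 0.86 between the lines (0.201). It passed in none of 13 alternatives either, DESeq2 included. Of all 2169 features tested, 7.51%, 12.5% and 5.39% passed in these comparisons. The other 9 genes had between 2 and 54.6 expected counts over all 9 libraries together, with sog the highest and zen the lowest. They were below the filter and were not tested.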

How the data were processed

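RNA and small RNA libraries of whole embryos were analysed, 9 of each in 3 groups of 3. The authors deposited RNA values as a normalised signal, whose scaling no header or label describes. Dividing by a library's smallest value gave whole numbers, within 0.01 reads, for 100% of entries above 0, so whole reads could be recovered as counts. Small RNA values were deposited in the form of expected counts, which were rounded here. The submitters' processing notes name cutadapt, Bowtie 1.2.2, featureCounts and the build BDGP6. Strand use and the treatment of multiply matching reads are not given in the sources used here. Gene coordinates are those of RefSeq's Release 6 plus ISO1 MT.

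RNA was tested with limma 3.58.1 (with a trend) on log2(value + 1) over the 10767 features that reached 1 in 3 or more libraries, and small RNA with edgeR 4.0.16 (quasi-likelihood, TMM, filterByExpr) over 2169. All 9 libraries of an assay shared 1 spread, with the group as the only term, Benjamini-Hochberg adjustment over all features and a threshold of 0.05. The fits were tested on simulated data. As a count test, edgeR on recovered reads called 19, 325 and 247 features in Piwi-MatKD_1 against GFP-MatKD, Piwi-MatKD_2 against GFP-MatKD and Piwi-MatKD_2 against Piwi-MatKD_1, where limma called 20, 327 and 239. Alternatives covered pseudocount, filter, scaling, model, library weights and left-out libraries. R was 4.3.3 and DESeq2 was 1.42.0.

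The 10 genes and the lists were chosen with earlier results of these data known. All 10 were to be named; of each list, up to 4 called genes with the largest change in Piwi-MatKD_2 against GFP-MatKD and the 2 most abundant others; and the 5 genes most like the mean of the 10 among those with a mean of at least 50. The labels give no sequencing batch. One symbol of the BMP list, Med, was matched to no feature.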

Additional observations from a re-analysis of the deposited data

Results flagged for a closer look

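Between the knockdown lines, 2 of the 10 dorsoventral genes and 5 of the 6 named list genes that were called in Piwi-MatKD_2 against GFP-MatKD passed the test of the difference itself, Piwi-MatKD_2 against Piwi-MatKD_1, as 2.22% of all features did. The list genes were named by their call in a comparison that shares the Piwi-MatKD_2 libraries, so their share is no separate evidence. None of these genes had passed in Piwi-MatKD_1 against GFP-MatKD. Among the 10 dorsoventral genes these were dpp, with a log2 difference of -3.04, and brk, with -2.56. In the lists beside them, Dad differed by -1.90 (adjusted p = 0.00257 by limma) and Mef2 by -1.39 (0.00380). The segmentation and head genes odd, Kr and oc differed by -3.79, -3.45 and -2.44, with adjusted p-values of 0.0236, 0.0239 and 0.0250 by limma. On the 73.0 M library alone, Dad, Mef2 and Kr still passed, at -2.30, -1.40 and -2.62 (adjusted p = 0.00847, 0.0366 and 0.0408 by limma). The part of the ribosomal RNA shares and of the late-embryo markers in these differences was not tested.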

How the results depend on the processing

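For both Piwi-MatKD_2 comparisons, all 10 dorsoventral genes kept their direction in 21 of 21 alternatives. Against GFP-MatKD the 3 calls became 9 with DESeq2 on recovered reads, 10 with limma library weights (a fit that stopped before its tolerance was reached), 0 without both libraries of high ribosomal RNA share, and 1 to 5 on leaving out 1 library. Of all 10767 features, DESeq2 called 383 as lower and library weights 1047, where the main fit called 153. The 3 calls became 2 with no filter, with quantile normalisation and with the 6 libraries compared alone. In these fits dpp was lost at adjusted p-values of 0.0504, 0.0547 and 0.0644 by limma. Against Piwi-MatKD_1 the 2 calls became 1 with no filter or with quantile normalisation, 6 with DESeq2, 0 with library weights, with the 6 libraries compared alone or without both of those libraries, and 0 to 3 on leaving out 1 library. Between the lines DESeq2 called 338 of all 10767 features as lower, where the main fit called 109. In Piwi-MatKD_1 against GFP-MatKD the count among the 10 genes was 0 in every alternative. The causes were not tested.

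Over all features, calls in Piwi-MatKD_1 against GFP-MatKD, Piwi-MatKD_2 against GFP-MatKD and Piwi-MatKD_2 against Piwi-MatKD_1 were 74, 810 and 693 with DESeq2. For the Piwi-MatKD_2 comparisons they were 207 and 61 with the 6 libraries compared alone and 142 and 118 without both libraries of high ribosomal RNA share, and against GFP-MatKD 1826 with library weights. Leaving out 1 library gave 5 to 29, 116 to 400 and 94 to 342 in RNA, and 47 to 172, 110 to 314 and 42 to 106 in small RNA. Scaling by library totals moved the median of all features to -0.19 and -0.21 in the Piwi-MatKD_2 comparisons and the split of higher and lower calls from 174 and 153 to 109 and 198, and from 130 and 109 to 70 and 122. Quantile normalisation moved the latter to 117 and 60.

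Only uncalled fold changes of Piwi-MatKD_1 against GFP-MatKD reversed: sog at -0.15 (edgeR), -0.13 (DESeq2) and -0.14 (weights), and dpp at -0.14 (weights). On leaving out 1 library they ran from -0.30 to 0.39 for dpp, -0.62 to 0.90 for sog, -0.89 to 0.061 for twi, -0.51 to 0.37 for rho and -0.64 to 0.14 for brk.

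Deviations of same-numbered libraries from their group means correlated at -0.130, -0.230 and -0.299 in RNA, which gave no sign of pairing by number there. In small RNA the correlations ran from -0.172 to 0.510. Those of replicate 3 were 0.387, 0.510 and 0.360, so pairing by number cannot be settled in small RNA. A replicate block called 3 RNA features in Piwi-MatKD_1 against GFP-MatKD, against 20 without it. In small RNA the block called 295 features in Piwi-MatKD_1 against GFP-MatKD, 294 in Piwi-MatKD_2 against GFP-MatKD and 246 between the lines. Without it these were 163, 272 and 117. No RNA block could be fitted for Piwi-MatKD_2. Depth limits the low values, since 1 read stands behind dpp, twi and sna in the 21.6 M library.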
